A study of Mus musculus with 8 samples.

Results

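The 10 genes described here are the p53 gene itself, Trp53, its negative regulator Mdm2, the cyclin-dependent kinase (CDK) inhibitor genes Cdkn1a, Cdkn1b, Cdkn2a and Cdkn2b, and the stress and death genes Sesn1, Sesn2, Bbc3 and Bax. They were chosen by name from 21631 protein-coding genes on the autosomes and chromosome X (RefSeq, GRCm38.p6), and each was described by the peaks whose summit lay in the gene or within 20 kb of it. All 10 were found in the annotation. The peaks come from chromatin immunoprecipitation sequencing (ChIP-seq) of mouse kidney cortex for Mta2, Mbd3 and Zbtb7a, and Input chromatin was sequenced for comparison. Each of these 4 groups held 2 biological replicates, and the replicates of all 4 groups are titled with identical animal-like numbers. The groups may therefore share the same 2 mice, though the labels do not say what those numbers mark. Every mouse was 2 months old and carried loxP-flanked alleles at Mta2 (Mta2flx/flx), Input included, and the labels name neither a Cre nor a treatment. Tissue was fixed with DSG and then formaldehyde, so that proteins held to DNA through other proteins are also captured, and cortex mixes many cell types, so a peak cannot be assigned to 1 of them.

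The transcription factor p53 is kept low by Mdm2, a ubiquitin ligase, and rises after DNA damage and other stress. It then switches on genes that stop the cell cycle (Cdkn1a), start cell death (Bbc3, which encodes Puma, and Bax) or limit growth signalling and oxidative stress (Sesn1 and Sesn2). CDK inhibitors of the Cip/Kip family (Cdkn1a, Cdkn1b) and the Ink4 family (Cdkn2a, Cdkn2b) stop the kinases that drive the cycle, and Cdkn2a also encodes Arf, which blocks Mdm2. Mta2 and Mbd3 belong to NuRD, a complex that joins histone deacetylases to a nucleosome remodelling enzyme. Zbtb7a is a zinc finger repressor, reported in mouse fibroblasts to repress the Arf transcript of Cdkn2a. In kidney, Cdkn1a is a well known marker of tubule cells that stop dividing after injury.

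The data were 3 peak lists, 1 per factor, of 149855 Mta2, 134248 Mbd3 and 124616 Zbtb7a peaks. Both replicates of a group are represented by the same list, so values have no SD and no n over animals, and no test was possible. The fold of a peak is the authors' own enrichment of signal over background at the summit. How Input entered that background is not stated in the labels. The median fold was 5.21 over the Mta2 list, 5.02 over the Mbd3 list and 5.00 over the Zbtb7a list. Rank 1 is the highest fold of a list, and a percentile is the share of that list's peaks with a lower fold. Folds and ranks describe a peak within its own list and do not compare the factors' levels, and where no peak is listed the signal fell short of the authors' threshold, which does not show an unbound place. The tissue label was checked at gene starts. Of 4 proximal tubule genes with a listed start (Slc34a1, Lrp2, Cubn and Aqp1) all 4 had a summit of each factor within 1 kb of it, against 67.8% (Mta2), 66.5% (Mbd3) and 66.5% (Zbtb7a) of all genes. Of 4 genes of other tissues, 1 (Alb, at an Mta2 fold of 4.07) had a summit of any factor there, and the podocyte gene Nphs1 had an Mta2 and a Zbtb7a summit and no Mbd3 summit. Within 20 kb, however, 5 of 5 proximal tubule genes and 4 of 5 genes of other tissues had a summit of each factor, so the wider window did not separate these tissues.

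The sequences below are start regions of Sesn1, Cdkn1a and Cdkn2a, members with more than 1 listed start. Bbc3 also has more than 1 and is not printed. Each runs from 250 bases before to 50 bases after an annotated start, on the gene's strand, as RefSeq gives it for GRCm38.p6. CpG dinucleotides, the bases at which mouse DNA is methylated, are in capitals. Sesn1 is shown because start 1 lies beside the strongest Zbtb7a peak of the 10 genes, whose summit is 432 bp before the start and so outside the printed stretch. Start 2 of Cdkn1a and start 1 of Cdkn2a had a peak of every factor, and start 2 of Cdkn2a had none.
Sesn1 start 1, chr10:41810324-41810623, plus strand: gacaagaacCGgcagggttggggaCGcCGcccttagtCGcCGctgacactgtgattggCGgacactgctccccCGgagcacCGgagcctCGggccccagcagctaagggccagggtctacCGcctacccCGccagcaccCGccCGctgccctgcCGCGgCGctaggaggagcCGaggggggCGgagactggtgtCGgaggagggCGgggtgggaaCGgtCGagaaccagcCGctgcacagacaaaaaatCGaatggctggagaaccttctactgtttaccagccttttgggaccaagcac
Sesn1 start 2, chr10:41887189-41887488, plus strand: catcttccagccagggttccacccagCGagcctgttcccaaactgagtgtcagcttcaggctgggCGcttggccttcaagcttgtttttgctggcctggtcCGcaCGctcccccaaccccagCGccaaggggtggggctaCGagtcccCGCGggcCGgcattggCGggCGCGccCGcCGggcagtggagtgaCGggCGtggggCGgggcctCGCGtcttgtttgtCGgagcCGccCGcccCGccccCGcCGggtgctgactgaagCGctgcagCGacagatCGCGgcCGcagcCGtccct
Cdkn1a start 2, chr17:29093519-29093818, plus strand: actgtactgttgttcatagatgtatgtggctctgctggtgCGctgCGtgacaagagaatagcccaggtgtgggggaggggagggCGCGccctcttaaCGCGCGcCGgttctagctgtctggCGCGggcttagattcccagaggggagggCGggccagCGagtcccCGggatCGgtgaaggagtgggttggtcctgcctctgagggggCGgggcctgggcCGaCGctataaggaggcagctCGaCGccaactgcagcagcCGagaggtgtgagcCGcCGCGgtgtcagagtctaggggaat
Cdkn2a start 1, chr4:89294570-89294869, minus strand: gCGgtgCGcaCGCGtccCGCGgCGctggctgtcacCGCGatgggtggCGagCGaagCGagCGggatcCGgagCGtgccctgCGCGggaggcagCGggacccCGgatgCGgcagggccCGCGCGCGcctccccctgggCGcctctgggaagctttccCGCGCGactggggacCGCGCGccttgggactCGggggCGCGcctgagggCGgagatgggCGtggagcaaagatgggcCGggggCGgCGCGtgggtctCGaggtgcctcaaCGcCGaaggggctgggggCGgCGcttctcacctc
Cdkn2a start 2, chr4:89282143-89282442, minus strand: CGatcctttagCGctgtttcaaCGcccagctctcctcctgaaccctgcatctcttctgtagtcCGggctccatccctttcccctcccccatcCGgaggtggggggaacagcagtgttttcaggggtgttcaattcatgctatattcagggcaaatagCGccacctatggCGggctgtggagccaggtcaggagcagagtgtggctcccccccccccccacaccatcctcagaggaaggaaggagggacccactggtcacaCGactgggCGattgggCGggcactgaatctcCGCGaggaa

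Start 1 of Cdkn1a, with no peak of any factor, is printed with other marks: its 2 matches to the p53 decamer, the 10-base unit of p53 response elements, are in capitals.
Cdkn1a start 1, chr17:29090729-29091028, plus strand: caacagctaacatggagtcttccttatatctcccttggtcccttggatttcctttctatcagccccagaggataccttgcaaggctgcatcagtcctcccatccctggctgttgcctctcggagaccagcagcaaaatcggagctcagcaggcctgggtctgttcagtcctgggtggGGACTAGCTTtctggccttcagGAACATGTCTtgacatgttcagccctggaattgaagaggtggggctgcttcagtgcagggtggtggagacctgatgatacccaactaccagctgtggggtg

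Peaks of all 3 factors were found around every one of the 10 genes, and at the start of nearly all. All 10 had a summit of Mta2, of Mbd3 and of Zbtb7a in the gene or within 20 kb, against 86.4% of all genes with Mta2, 85.5% with Mbd3 and 85.0% with Zbtb7a. Within 1 kb of an annotated start, 9 of the 10 had an Mta2 summit against 67.8% of the 17274 genes with a listed start, 9 had an Mbd3 summit against 66.5%, and 10 had a Zbtb7a summit against 66.5%. All 3 factors met there at 9 genes, against 64.0% of all genes. Every listed start of the members except start 1 of Cdkn1a held at least 10 CpG. Among all starts with at least 10 CpG, 92.1% (Mta2), 91.1% (Mbd3) and 91.5% (Zbtb7a) had a summit within 1 kb. With 10 genes and a background this high, these counts do not set the members apart. Trp53 was the gene without an Mta2 or Mbd3 summit within 1 kb: those summits lay 1170 and 1158 bp into the gene, just outside the limit. The only Mta2 summit at a start of Cdkn1a lay just inside it, 934 bp after start 2, whereas Mbd3 and Zbtb7a each had a summit closer to that start as well.

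The strength of the peaks at the starts spread widely. The median over the members of the highest fold at a start was 16.2 for Mta2 (9 genes), 14.3 for Mbd3 (9 genes) and 22.0 for Zbtb7a (10 genes). Over all genes with a summit at a start it was 15.3 for Mta2 (11705 genes), 14.1 for Mbd3 (11494 genes) and 14.9 for Zbtb7a (11488 genes). The members thus lay near the middle of all genes for Mta2 and Mbd3. For Zbtb7a, Sesn1, Cdkn1b, Mdm2, Bbc3 and Cdkn1a were above the median of all genes by at least 11 units of fold, Sesn2 was above it by less, and Trp53, Cdkn2a, Cdkn2b and Bax were below it.

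**Figure D1:**
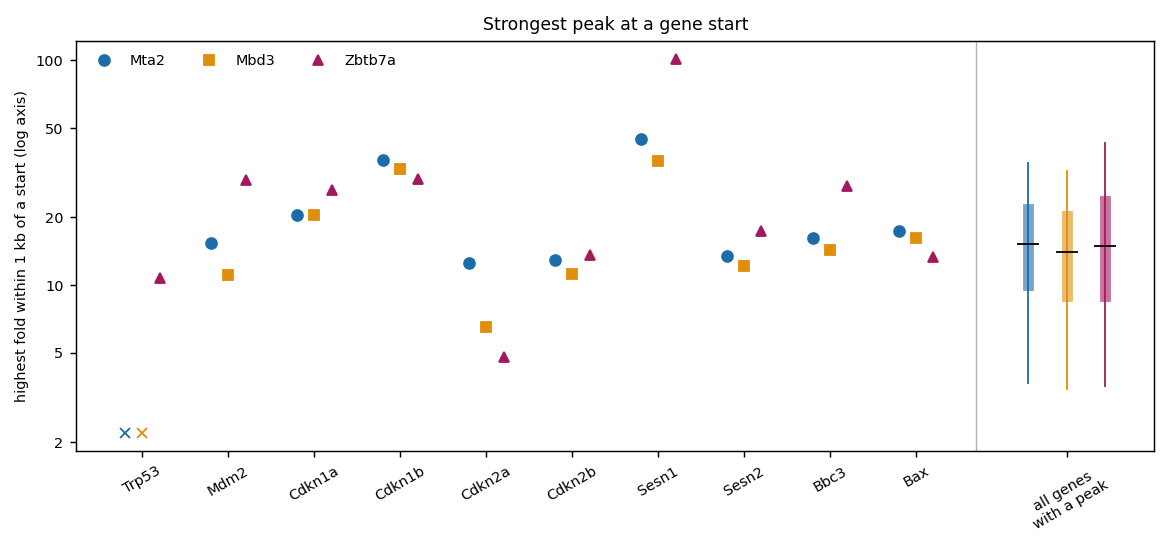
The highest fold within 1 kb of a start is plotted on a log axis for each gene, with Mta2 as circles, Mbd3 as squares and Zbtb7a as triangles, and a cross where no summit lay within 1 kb; on the right, the line spans the 5th to 95th and the thick bar the 25th to 75th percentile of all genes with such a peak, with the median as a black dash. Sesn1 stood highest for every factor, at 44.5 (Mta2), 35.8 (Mbd3) and 101 (Zbtb7a), and Cdkn2a lowest of the genes with a peak there.

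Trp53 (chr11:69580348-69591873, plus strand) was covered by broad NuRD peaks around its start. Mta2 had 1 interval of 2963 bp (chr11:69578829-69581791) with a fold of 25.4, rank 6805, and Mbd3 had 1 of 3080 bp with a fold of 21.9, rank 8430. Zbtb7a had 3 separate peaks over the same stretch, with folds of 10.7 at 875 bp before the start, 9.84 at 8 bp before it and 18.1 at 1171 bp after it. The strongest summit of all 3 factors was thus the same place inside the gene, while the weaker Zbtb7a peaks were not separate in the other lists. The first 2 Zbtb7a summits also lay within 1 kb of a start of Wrap53, the neighbouring gene on the opposite strand, and these peaks cannot be assigned to either gene. Farther away, a summit 23324 bp (Mta2), 23338 bp (Mbd3) and 23368 bp (Zbtb7a) after the start, inside Atp1b2, which encodes a sodium pump subunit, had folds of 14.1, 9.06 and 8.34 in that order of factors. The next summit, 45 bp (Mta2), 78 bp (Mbd3) and 58 bp (Zbtb7a) from the upper end of Atp1b2, had folds of 11.2, 10.98 and 13.6, and for Mbd3 and Zbtb7a it was the stronger of the pair.

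Mdm2 (chr10:117688875-117710758, minus strand) had its start peak inside the gene. The summit lay 578 bp after the start for Mta2 with a fold of 15.5, 597 bp for Mbd3 with 11.1, and 561 bp for Zbtb7a with 29.2. As at Trp53, the NuRD intervals were broad (2932 bp for Mta2 and 2977 bp for Mbd3) and held 3 Zbtb7a peaks, of which the other 2 had folds of 6.84 and 3.44. A further peak, 7062 bp before the start by its Mta2 summit and in no annotated gene, was stronger than the start peak for Mta2 (26.7, rank 5749) and Mbd3 (26.8, rank 4710), and weaker for Zbtb7a (22.0, rank 9163). So the order of the start and the upstream peak differed between Zbtb7a and the NuRD subunits, a description of single values without a test.

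Cdkn1a (chr17:29090979-29100722, plus strand) encodes the inhibitor p21 and has annotated starts 2790 bp apart. At start 1 no interval of any factor covered the start, and the nearest summits were 3724 bp (Mta2), 2689 bp (Mbd3) and 2728 bp (Zbtb7a) after it. Start 2 was occupied by all 3 factors. The Mta2 interval there was 2679 bp long with a fold of 20.6 and its summit at 934 bp. Mbd3 had a peak of 16.7 at 101 bp before start 2 and one of 20.5 at 958 bp after it, and Zbtb7a had one of 16.2 at 62 bp before and one of 26.5 at 971 bp after. Both lists with 2 peaks thus had the stronger one after start 2. All of these summits lay inside the annotated gene, which begins at start 1. The highest folds ranked 11914 for Mta2, 9891 for Mbd3 and 6147 for Zbtb7a. Upstream, a weaker peak of 6.88 (Mta2), 6.34 (Mbd3) and 9.34 (Zbtb7a) had its summit 54, 75 and 75 bp from the upper end of Trp53cor1, the p53-induced long noncoding RNA gene next to Cdkn1a.

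The printed starts of Cdkn1a differ in base composition. Start 1 held 2 CpG dinucleotides in its 300 bases and start 2 held 23. Among all 21045 annotated starts, those with under 10 CpG had an Mta2 summit within 1 kb in 33.0%, an Mbd3 summit in 31.5% and a Zbtb7a summit in 31.1% of cases. Those with at least 10 CpG had one in 92.1% (Mta2), 91.1% (Mbd3) and 91.5% (Zbtb7a). Start 1 carried the p53 decamers GGACTAGCTT and GAACATGTCT, close enough (at most 13 bases between them) to form a pair. No other start of the 10 genes held such a pair, and 0.0475% of all starts did. Only exact matches in the 300-base windows were counted. The bases directly after GAACATGTCT, tgacatgttc, miss a match at their first base alone and were therefore not marked. So the marked pair need not be the 2 units of a response element. At least 1 decamer was found at 5 of the 15 member starts (Trp53, Mdm2, start 1 of Cdkn1a, start 2 of Sesn1, and Bax) and at 7.37% of all starts. Binding by p53 was not measured, and a match of letters is not a site.

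Cdkn1b (chr6:134920401-134925525, plus strand) encodes p27, a CDK inhibitor that keeps resting cells out of the cycle. Its start peak was second to that of Sesn1 among the members for each factor, with a fold of 36.1 for Mta2 (rank 1899), 33.0 for Mbd3 (rank 2279) and 29.7 for Zbtb7a (rank 4586). The summits lay 135, 141 and 166 bp before the start in that order. Among all genes with a start peak, Cdkn1b stood 521st of 11705 for Mta2, 521st of 11494 for Mbd3 and 1769th of 11488 for Zbtb7a. A second strong peak lay beyond the gene, 8326 bp after the start by its Mta2 summit, with folds of 41.2 (Mta2, rank 1019), 30.9 (Mbd3) and 26.8 (Zbtb7a). Its summit was 365, 405 and 445 bp before the start of the long noncoding RNA gene Lockd. For Mta2 this second peak was the strongest of the Cdkn1b window, and for Mbd3 and Zbtb7a the start peak was.

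Cdkn2a (chr4:89274473-89294619, minus strand) and Cdkn2b (chr4:89306289-89311032, minus strand) are neighbours, and their windows held the same 2 peaks per factor, the fewest of the 10 genes. The peak at start 1 of Cdkn2a, the outer one, had folds of 12.5 (Mta2), 6.48 (Mbd3) and 4.79 (Zbtb7a). These were percentiles of 80.4, 61.5 and 48.4 in their lists, and each fold was the lowest at any member with a start summit of that factor. Its summits also lay within 1 kb of a start of the long noncoding RNA gene Gm12610 on the other strand. Start 2, 12427 bp further on, had no summit of any factor within 1 kb. The outer start of mouse Cdkn2a is known to make the Arf transcript and the inner one Ink4a, which the annotation used here does not name. Start 1 held 45 CpG and start 2 held 12, so the empty start of Cdkn2a, unlike that of Cdkn1a, had at least 10 CpG. The peak at Cdkn2b had folds of 12.97 (Mta2, 29 bp before the start), 11.2 (Mbd3, 20 bp after it) and 13.6 (Zbtb7a, 364 bp after it). Its Zbtb7a fold was above that at Cdkn2a, while the Mta2 folds of the 2 genes lay close together.

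**Figure D2:**
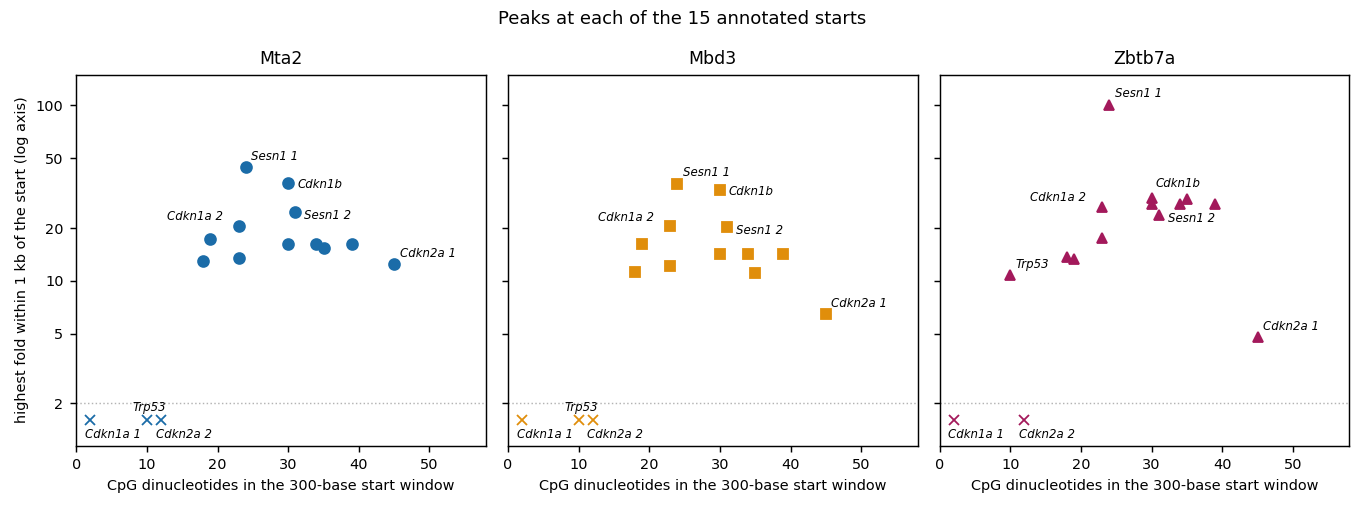
For the 15 annotated starts of the 10 genes, the highest fold within 1 kb is plotted on a log axis against the number of CpG dinucleotides in the 300-base window, 1 panel per factor, with crosses below the dotted line where no summit lay within 1 kb. The crosses for Zbtb7a are start 1 of Cdkn1a (2 CpG) and start 2 of Cdkn2a (12 CpG), and start 1 of Cdkn2a has the most CpG (45) with a Zbtb7a fold of 4.79.

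Sesn1 (chr10:41810574-41908436, plus strand), which encodes sestrin 1, carried the strongest Zbtb7a peak of the 10 genes. Its summit lay 432 bp before start 1 (chr10:41809413-41811124), with a fold of 101 and rank 40 of 124616, the 99.97th percentile. Mta2 had a fold of 44.5 there (rank 656) at 470 bp before the start, and Mbd3 a fold of 35.8 (rank 1651) at 436 bp. All 3 summits thus fell within 38 bp of each other. Among genes with a Zbtb7a peak at a start, Sesn1 stood 29th of 11488, against 198th of 11705 for Mta2 and 360th of 11494 for Mbd3. The summits lie between Sesn1 and Cep57l1, a gene on the other strand whose start is within 1 kb, so the peak cannot be assigned to either. Start 2, 76865 bp further on, had folds of 24.6 (Mta2), 20.2 (Mbd3) and 23.8 (Zbtb7a) 104 bp (Mta2, Mbd3) and 123 bp (Zbtb7a) before it. The other Sesn1 peaks were weak: of 16 Mta2, 14 Mbd3 and 10 Zbtb7a summits in the longest window of the members, none away from the starts had a fold above 8.45 (Mta2), 7.75 (Mbd3) or 5.78 (Zbtb7a).

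Sesn2 (chr4:132492804-132510456, minus strand), which encodes sestrin 2, showed the opposite arrangement. Its start peak was moderate, with folds of 13.4 (Mta2), 12.2 (Mbd3) and 17.4 (Zbtb7a), and the Zbtb7a summit lay 717 bp inside the gene where the Mta2 and Mbd3 summits lay 79 and 88 bp before the start. The strongest peaks were outside the gene. One was 7822 bp before the start for Mta2 (chr4:132517496-132518705), with a fold of 54.3, rank 185 of 149855, the highest Mta2 fold of all 10 windows. The same place had 45.8 for Mbd3 (rank 471) and 49.1 for Zbtb7a (rank 811). Another lay 35569 bp after the start, beyond the gene's end, and had folds of 37.7 (Mta2, rank 1560), 47.6 (Mbd3, rank 383) and 46.9 (Zbtb7a, rank 1016). The first was the higher for Mta2, and the pair lay close together for Mbd3 and for Zbtb7a. Beyond the gene's end, peaks 18498, 25437 and 27006 bp after the start by their Mta2 summits had folds of 20.9 to 35.9 over the lists of all 3 factors. These distal summits lay in no annotated gene. With 15 Mta2, 15 Mbd3 and 16 Zbtb7a summits, the Sesn2 window held 2.60, 2.60 and 2.78 per 10 kb, against a median over all genes of 0.864 (Mta2), 0.764 (Mbd3) and 0.707 (Zbtb7a).

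Bbc3 (chr7:16308398-16318334, plus strand) has 3 annotated starts within 848 bp, which shared 1 peak of each factor. Its summit was 66 bp (Mta2), 68 bp (Mbd3) and 87 bp (Zbtb7a) before the outermost start, with folds of 16.2, 14.3 and 27.5. Zbtb7a ranked it 5603, and Mta2 and Mbd3 ranked it 19503 and 19822. A further, weak Zbtb7a peak, in neither other list, had its summit 887 bp before the outermost start, with a fold of 3.87. The annotated span of Bbc3 begins before that listed start, so these summits lay inside the span. A peak 14520 bp before the start by its Mta2 summit had folds of 21.4 (Mta2), 14.5 (Mbd3) and 20.4 (Zbtb7a), so that this peak was above the start peak for Mta2, close to it for Mbd3 and below it for Zbtb7a. The gene body held a further broad interval of 2996 bp (Mta2), 2778 bp (Mbd3) and 2907 bp (Zbtb7a) with folds of 9.85, 7.13 and 9.13.

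Bax (chr7:45461695-45466903, minus strand) encodes a protein that opens the outer mitochondrial membrane in cell death. Its start peak was 863 bp wide for Mta2, 816 bp for Mbd3 and 856 bp for Zbtb7a, against list medians of 450, 422 and 393 bp. The folds were 17.4, 16.1 and 13.4 in that order of factors, at 34, 46 and 54 bp after the start. The Bax neighbourhood is dense in genes, and its window held 13 Mta2, 12 Mbd3 and 9 Zbtb7a summits. Per 10 kb these were 2.88, 2.65 and 1.99, more than in the Sesn2 window for Mta2 and Mbd3 and fewer for Zbtb7a. For Zbtb7a the strongest of them was not at Bax but at the start of Ftl1, which encodes the ferritin light chain, 6874 bp after the Bax start, with a fold of 19.7. The same place had 12.2 for Mta2 and 12.3 for Mbd3, both below the start peak of Bax.

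**Figure D3:**
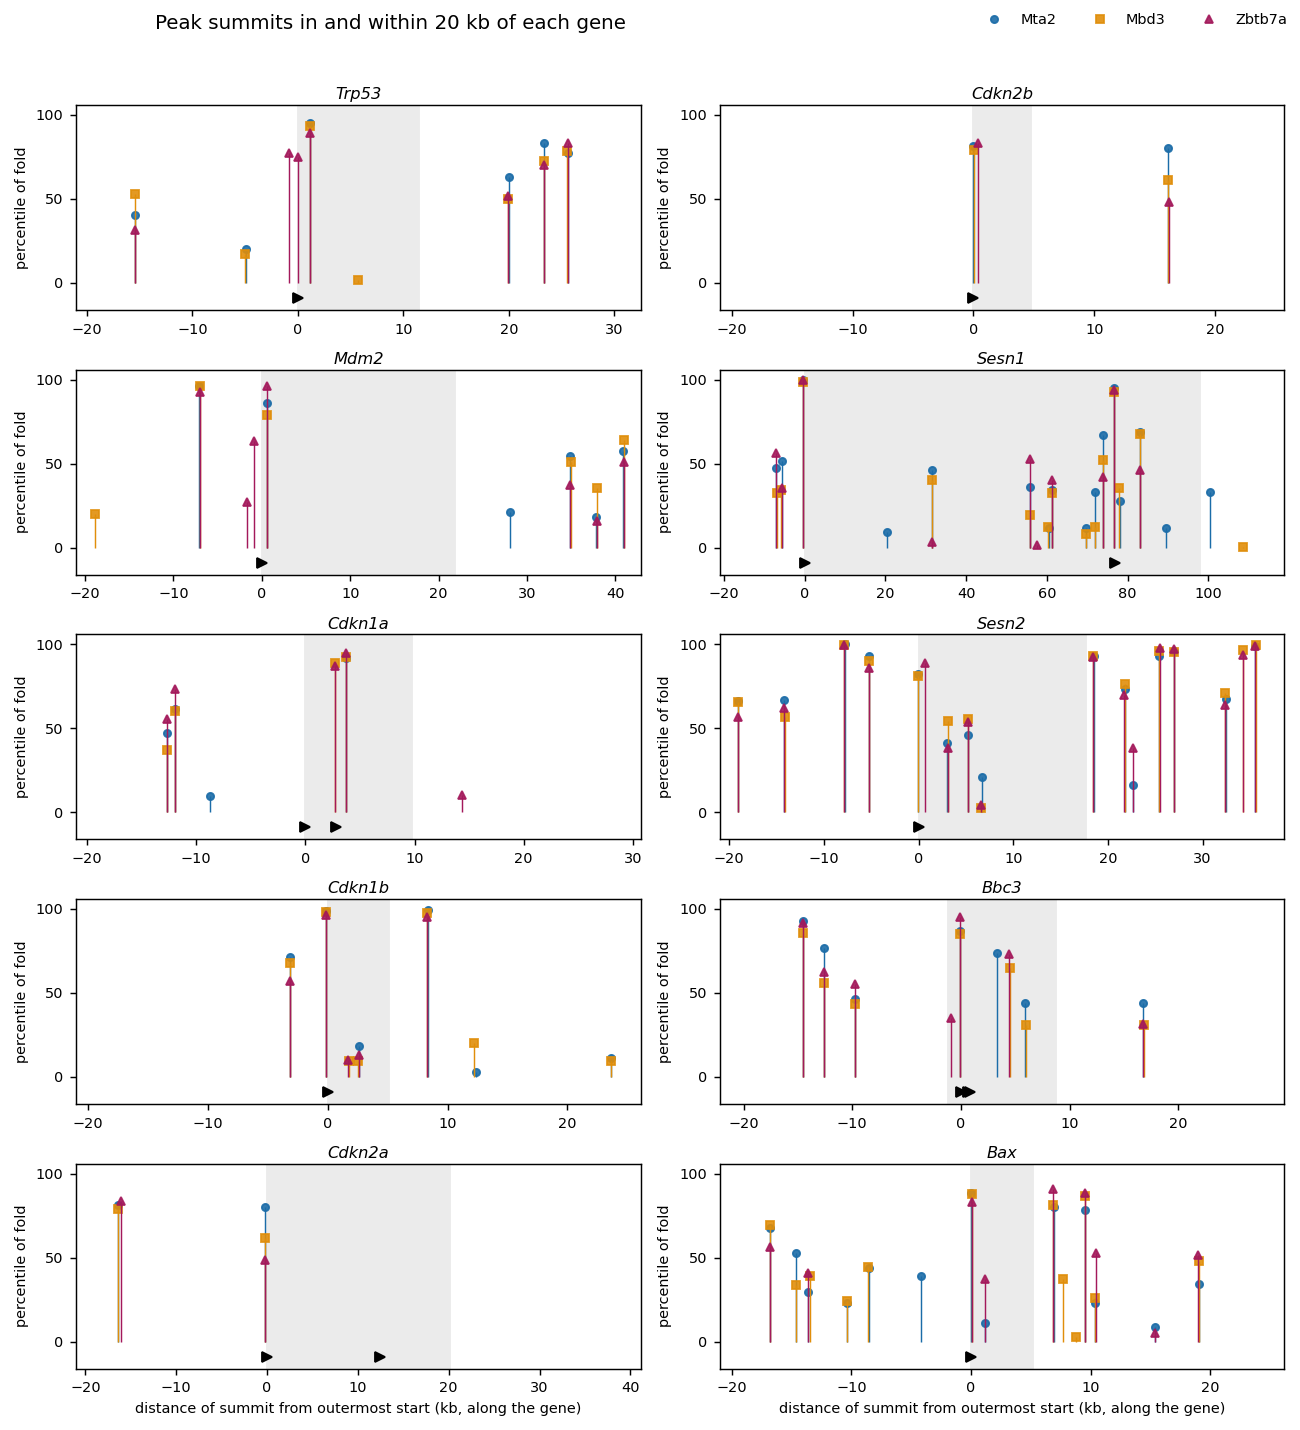
Each panel shows a gene (grey span, black arrowheads for annotated starts, transcription to the right) and 20 kb on each side, with the distance of each summit from the outermost start in kb along the horizontal axis and the percentile of the peak's fold in its own list as height (Mta2 circles, Mbd3 squares, Zbtb7a triangles). The symbols mostly coincide, the Sesn2 panel has high peaks on both sides of the gene, and the Cdkn2a and Cdkn2b panels hold 2 peaks per factor.

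Seen together, the 10 windows held 75 different Mta2 peaks, 74 Mbd3 peaks and 68 Zbtb7a peaks. Of these, 10 (Mta2), 11 (Mbd3) and 15 (Zbtb7a) had their summit within 1 kb of a start of the 10 genes, and the others were inside, before or after the genes. Peaks at starts had a median fold of 16.8 (Mta2), 16.1 (Mbd3) and 16.2 (Zbtb7a), against 4.87, 5.03 and 5.60 for the other peaks of the windows. The medians of the whole lists were 5.21, 5.02 and 5.00. The same contrast over all genes is not given here, so it is not shown to be particular to these windows. The strongest peak of a window was at a start for 4 genes with Mta2, 5 with Mbd3 and 6 with Zbtb7a, against 34.5%, 34.1% and 37.3% of all genes with a summit and a listed start. The strongest peak of a member had a median percentile of 94.1 (Mta2), 93.2 (Mbd3) and 95.3 (Zbtb7a), against 92.0, 91.4 and 91.4 over all genes.

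**Figure D4:**
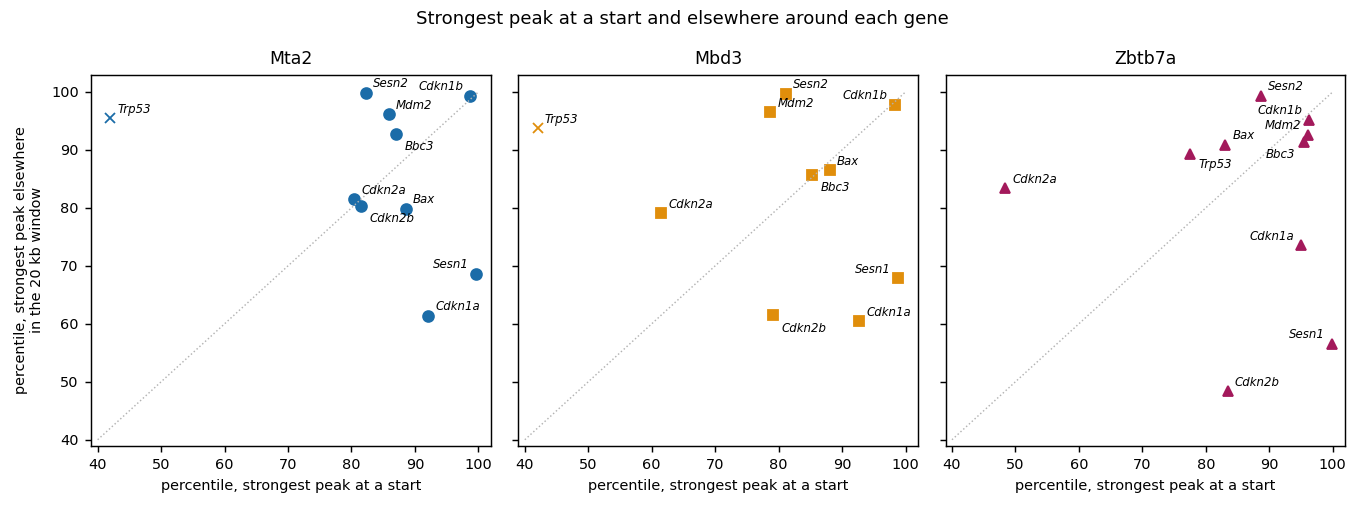
For each gene the percentile of its strongest peak away from the starts is plotted against that of its strongest peak at a start, 1 panel per factor, with crosses at the left where no summit lay within 1 kb of a start. Points above the dotted line of equal values had their strongest peak away from the start, as Sesn2 and Cdkn2a did for all 3 factors. For Cdkn2a that peak is the one at the start of its neighbour Cdkn2b. Sesn1 and Cdkn1a lie below the line in every panel.

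The 3 factors mostly shared their peaks at these genes. A peak overlapping one of both other lists by at least 1 bp made up 55 of 75 Mta2 peaks (73.3%), 59 of 74 Mbd3 peaks (79.7%) and 62 of 68 Zbtb7a peaks (91.2%). Over the whole lists these shares were 68.4% (Mta2), 78.6% (Mbd3) and 86.6% (Zbtb7a), so the members stood close to the rest of the genome. Peaks of 1 factor alone numbered 6 for Mta2, 3 for Mbd3 and 3 for Zbtb7a. No peak missing from 1 or both other lists had a fold above 5.54 (Mta2), 4.52 (Mbd3) or 4.01 (Zbtb7a). Summits lay close together as well. For the 62 Zbtb7a peaks found in all lists, the median distance to the nearest summit was 31 bp for Mta2, with 51 within 100 bp, and 26.5 bp for Mbd3, with 55 within 100 bp.

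The core GACCC, reported as a recognition sequence of Zbtb7a, did not set apart the occupied starts of the members. Searched on both strands of the 300-base windows, it was found at 4 of the 15 member starts, against 47.2% of all starts. Over all starts it was found at 53.1% of those with a Zbtb7a summit within 1 kb and at 35.9% of those without. Among the members it was present at both starts that had no Zbtb7a summit, start 1 of Cdkn1a and start 2 of Cdkn2a, and at start 1 of Sesn1 and of Cdkn2a. It was absent from the printed stretch at the other occupied starts, which says nothing about the rest of the peak. The core was counted without regard to overlap with other motifs.

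Of 60 further genes of the p53 pathway and of CDK control, grouped by role, nearly all were occupied. In the gene or within 20 kb, 60 had an Mta2 summit, 59 an Mbd3 summit and 60 a Zbtb7a summit, against 86.4%, 85.5% and 85.0% of all genes. Of the 45 with a listed start, 43 had an Mta2 summit within 1 kb, 42 an Mbd3 summit and 44 a Zbtb7a summit, against 67.8%, 66.5% and 66.5% of all genes. Those shares mix CpG-rich and CpG-poor starts. Among all starts with at least 10 CpG, 92.1% (Mta2), 91.1% (Mbd3) and 91.5% (Zbtb7a) had a summit. The CpG counts of the 45 genes are not given here, so the counts do not set these genes apart. Among regulators of p53, 8 of 9 had an Mta2 summit, 8 an Mbd3 summit and 9 a Zbtb7a summit at the start. One of these 9 was Wrap53, whose strongest Zbtb7a start peak (fold 10.7) is the peak already counted at Trp53. For targets of arrest and repair it was 8 of 9 with each factor, and for targets of metabolism and stress 7 of 7. For genes of the cell death pathway, a list that also holds the survival genes Bcl2, Bcl2l1 and Mcl1, it was 12 of 12 with Mta2, 11 with Mbd3 and 12 with Zbtb7a. The other CDK inhibitor genes (3 of 3) and the cyclin and CDK partners (5 of 5) were occupied by every factor. The DNA damage gene Gadd45b was the 1 gene without a summit of any factor at a listed start. Its 20 kb window nevertheless held 13 Mta2, 11 Mbd3 and 13 Zbtb7a summits, against medians over all genes of 6, 5 and 5.

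The highest Zbtb7a folds among the 45 genes with a listed start were 46.2 at Bcl2l1, which encodes the survival protein Bcl-xL, 45.3 at Ddit4, an inhibitor of mTOR signalling, and 44.7 at Ccne1, which encodes cyclin E1. All 3 were under the 101 of Sesn1 and above the start fold of every other member, of which Cdkn1b was the highest at 29.7. The highest Mta2 folds were 32.6 at Bcl2, a survival gene, 32.6 at Ccne1 and 31.4 at Cdk4, the kinase that Ink4 proteins block. All of these were under the 44.5 of Sesn1 and the 36.1 of Cdkn1b. Every one of the 60 genes had a summit of at least 1 factor in its window.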

How the data were processed

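Kidney cortex of mice was profiled by ChIP-seq in 8 libraries. The submitters' processing notes name the mm10 build and the tools Bowtie2, MACS2, deepTools and bedtools. Their versions and roles were not given in the sources used here. Per factor, the authors deposited 1 list in narrowPeak layout, and how the 2 replicates were combined is not stated there. Each line gives a fold (the authors' ratio of ChIP to background signal), a deposited −log10 q and, as deposited, how many bp the summit lies from where the interval begins. Read depth was not analysed here, so no interval on a value is given, and a weak peak is less reliable than a strong one.

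Peaks on the autosomes and X were kept, which left out 143 Mta2, 156 Mbd3 and 80 Zbtb7a peaks that lay elsewhere. Summits were assigned to RefSeq GRCm38.p6 spans, which share coordinates with mm10, and to annotated starts from the RefSeq table of start regions. Exons and introns were not used here. Distances to a start run along the gene, and for several starts the nearest counts. No test was made, since each factor has 1 list. Counts stand beside the same over all genes. The 10 members and the wider lists were chosen with earlier results of these data known. Of the wider lists, the genes named are the 3 with the highest Zbtb7a and the 3 with the highest Mta2 fold at a start, and those with no summit. Gadd45b was named after its values were seen. Assignment was tested on simulated data with Python 3.11.15, pandas 2.3.3 and numpy 2.4.6.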

Additional observations from a re-analysis of the deposited data

How the results depend on the processing

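Counts of members with a summit in the window or at a start stayed within 1.5 times under every alternative run. At a start they ranged over 7 to 10 (Mta2), 8 to 10 (Mbd3) and 8 to 10 (Zbtb7a). With a start window of 0.5 kb, Trp53, Mdm2 and Cdkn1a had no Mta2 summit, and with 3 kb all 10 genes had one of each factor. Counting the outermost start alone, an alternative added after the data were seen, left 8 genes with Mta2, 8 with Mbd3 and 9 with Zbtb7a. The number of peaks follows the flank: 5 kb gave 38 Mta2, 38 Mbd3 and 37 Zbtb7a summits, and 50 kb gave 163, 151 and 145, since a wider window holds more peaks. With 5 kb, the median percentile of the strongest peak was 90.3 (Mta2), 90.3 (Mbd3) and 93.7 (Zbtb7a). Distal peaks then fall outside at Sesn2 and Cdkn2a for every factor, at Mdm2 for Mta2 and Mbd3, and at Bbc3 for Mta2 and Mbd3. Ranked by −log10 q it was 94.2 (Mbd3) and 97.0 (Zbtb7a), and the cause was not tested. At Cdkn2a the percentile of the strongest Zbtb7a peak is 48.4 within 5 kb in place of 83.4, since the peak at the Cdkn2b start then lies outside the window and the Cdkn2a start peak remains. No paired analysis was possible because each factor has 1 peak list and no test was made, and no list could be made without 1 mouse. Depth was not analysed here, and it limits which weak peaks are listed.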
